A study of Drosophila melanogaster with 6 samples.

Results

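The genes described here encode galactosidases and lysosomal alpha-mannosidases, enzymes that remove terminal sugars from glycoproteins, glycolipids and oligosaccharides. They comprise the alpha-galactosidase genes *CG7997* and *CG5731*, the beta-galactosidase genes *Gal* and *Ect3*, and the lysosomal alpha-mannosidase genes *LManI* to *LManVI*, which makes 10 genes among the 12967 gene entries measured. They were found on the arrays by symbol or CG number. Each is represented by 1 probe set, a set of short probes read together as 1 signal. The list had been selected on the differences between *Apc1* mutant and wild-type midguts on these same arrays. The differences of these genes between the genotypes are therefore given as a description, with no test.

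Gene expression was measured on Affymetrix Drosophila arrays in whole midguts of 7-day-old adult females. The groups were 3 samples of animals lacking *Apc1* function throughout the body (the null allele Apc1Q8) and 3 samples of wild type, with the midguts of several females pooled per sample. The wild-type strain is named w1118 in the series description but Canton S in the methods, so differences of strain and of the *Apc1* allele cannot be told apart. Values are log2 RMA values, so a difference of 1 is a 2-fold change, and differences are given as *Apc1* mutant minus wild type, with their standard errors (SE) from the fit over all gene entries.

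An exo-glycosidase takes 1 sugar at a time from the end of a chain. Alpha-galactosidases act on galactose in alpha linkage, as in some plant sugars and in glycolipids, whereas beta-galactosidases act on galactose in beta linkage. Lysosomal alpha-mannosidases trim mannose from the N-linked glycans of proteins that are broken down in the lysosome. In mammals, loss of single enzymes of this kind causes lysosomal storage disease. The adult fly midgut absorbs and breaks down food through its enterocytes, and its middle part holds the acid-secreting copper cells.

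The arrays separated the genotypes, as arrays of the same genotype correlated at 0.9823 to 0.9922 over the gene entries and arrays of different genotypes at 0.9486 to 0.9608. Array medians lay between 2.52 and 2.59, so values near or below this level are at the dim end of the scale. Transcripts of *Apc*, the mutated gene, measured 6.49 ± 0.41 in *Apc1* mutants and 6.36 ± 0.41 in wild type (SD, n = 3 each; limma adjusted p = 0.781), and since a null allele need not remove the transcript, this level does not check the labels. Of 6 enterocyte markers, 3 were lower in *Apc1* mutants and none higher (limma adjusted p under 0.05), and 5 had means above 8 in both genotypes. The exception was *Jon25Bi*, with a mean of 3.10 in *Apc1* mutants and 9.27 in wild type. Of 6 progenitor markers, 4 were higher in *Apc1* mutants and none lower, and of 8 enteroendocrine markers 6 were higher and 1 lower (limma adjusted p under 0.05). Fat body markers were uneven. Their summed level lay between 7.16 and 9.80 in *Apc1* mutants and between 9.92 and 11.77 in wild type, with the highest value on wild type replicate 2, where ovary and eggshell markers were highest as well (7.48). In RNA from whole midguts, fewer cells of a type and less RNA per cell cannot be told apart.

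The alpha- and beta-galactosidase genes differed between the genotypes in opposite directions. Both alpha-galactosidase genes were higher in *Apc1* mutants by more than 2-fold, both beta-galactosidase genes were lower by more than 2-fold, and in all 4 the groups did not overlap. None of the 6 mannosidase genes reached a 2-fold difference, and in all 6 the groups overlapped. Over all gene entries, 3.62% were higher and 3.84% lower by more than 2-fold (7.46% in either direction), and 35.2% had groups that did not overlap. The median difference of the 10 genes was 0.08, beside 0.01 over all gene entries.

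*CG7997*, an alpha-galactosidase gene, had values of 6.31, 7.25 and 6.04 in *Apc1* mutants, against 4.26, 4.01 and 4.34 in wild type. The lowest mutant array was thus well above the highest wild-type array. The group means were 6.53 ± 0.64 in *Apc1* mutants and 4.2 ± 0.18 in wild type (SD, n = 3 each), a difference of 2.33 (SE 0.30), or 5.02-fold. By its identifier, its probe set can match more than 1 transcript of the gene or its relatives. It was the only galactosidase gene with all 6 values above the array medians by more than 1. A larger increase was seen in 87 of the 12967 gene entries, a place that is description only, as the list was selected on this difference.

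*CG5731*, the other alpha-galactosidase gene, had values of 3.94, 4.17 and 3.68 in *Apc1* mutants, against 0.77, 1.04 and 1.07 in wild type. The wild-type values lie at the bottom of the scale, where the arrays separate signal from background poorly, and the mutant values lie above the array medians. The difference of means was 2.97 with a standard error of 0.16, between 3.93 ± 0.25 in *Apc1* mutants and 0.96 ± 0.17 in wild type (SD, n = 3 each). This corresponds to 7.83-fold, a size that depends on the background correction because the wild-type signal is dim.

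*Gal*, which encodes a beta-galactosidase, had values of 2.83, 3.85 and 2.44 in *Apc1* mutants, against 8.14, 7.13 and 7.56 in wild type. The signal was far above the array medians on every wild-type array and near them on the mutant arrays, apart from replicate 2. Mean levels were 3.04 ± 0.73 in *Apc1* mutants and 7.61 ± 0.50 in wild type (SD, n = 3 each). The difference was -4.57 with a standard error of 0.40, so that the level in wild type was 23.7-fold that in mutants. It was the largest difference of the 10 genes.

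*Ect3*, the second beta-galactosidase gene, had values of 2.98, 2.27 and 2.71 in *Apc1* mutants, against 4.88, 4.86 and 5.49 in wild type. The mutant values again lie around the array medians, and the wild-type values are modest. The means were 2.65 ± 0.36 in *Apc1* mutants and 5.08 ± 0.36 in wild type (SD, n = 3 each), a difference of -2.42 (SE 0.24), which makes the wild-type level 5.36-fold that in mutants. *Ect3* lies on chromosome arm 3R, as does *Apc*, with a distance of 1871 places among the 3146 measured genes of that arm. *Gal* and *CG5731* lie on 2L and *CG7997* on 2R, so that the genes that differed are spread over 3 chromosome arms.

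**Figure D1:**
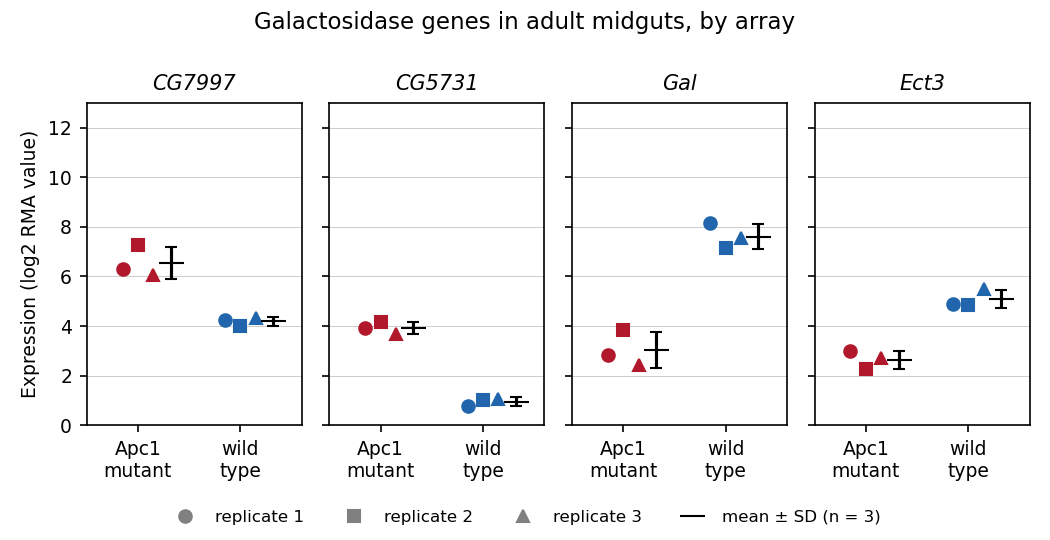
Expression of the 4 galactosidase genes (y axis, log2 RMA value) in *Apc1* mutant (red, left) and wild-type (blue, right) midguts, 1 symbol per array, with the mean ± SD of 3 arrays beside them. *CG7997* and *CG5731* were higher in *Apc1* mutants, *Gal* and *Ect3* lower, and the groups did not overlap in any of the 4 panels.

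Within *Apc1* mutants, replicate 2 had the highest value of *CG7997*, *CG5731* and *Gal* and the lowest of *Ect3*. The deviation of this array from the mutant mean was 0.72 for *CG7997*, 0.24 for *CG5731*, 0.81 for *Gal* and -0.38 for *Ect3*. None of these deviations came close to the difference between the genotypes. With any 1 array left out, the difference stayed between 1.97 and 2.58 for *CG7997*, between 2.85 and 3.09 for *CG5731*, between -4.97 and -4.27 for *Gal* and between -2.58 and -2.21 for *Ect3*.

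Markers of the copper cell region moved in the same direction as the beta-galactosidase genes. Of 5 such markers, 3 were lower in *Apc1* mutants and none higher (limma adjusted p under 0.05). The homeobox gene *lab*, which specifies copper cells, averaged 2.15 in *Apc1* mutants and 6.61 in wild type, a difference of -4.46 (limma adjusted p = 0.000185). *Vha100-4*, a proton pump subunit gene, averaged 1.76 in *Apc1* mutants and 8.39 in wild type (limma adjusted p = 0.000134). *Ptx1* had a difference of -1.93 (limma adjusted p = 0.000232), while *dve* (0.04) and *CAH1* (-0.57) did not pass. The summed level of the 5 markers was between 9.15 and 9.85 on the *Apc1* mutant arrays and between 9.96 and 10.73 on the wild-type arrays. *Gal* was highest on replicate 2 in *Apc1* mutants, as were the summed level, *dve* (9.39) and *CAH1* (7.50). *Ect3* went the other way in *Apc1* mutants, with its lowest value on replicate 2 (2.27 against 2.98 and 2.71). *Vha100-4* was lowest on that array too (1.39 against 1.94 and 1.95). *lab* and *Vha100-4* were below the array medians on all mutant arrays. In wild type, *Gal*, the summed level and each of the 5 markers were lowest on replicate 2, *lab* at 5.90 and *Vha100-4* at 7.53. *Ect3* was nearly level there between replicate 1 (4.88) and replicate 2 (4.86). A low wild type replicate 2 was not particular to the copper cell region. The summed level of the digestive carbohydrase genes was lowest on that array too (11.46 against 13.09 and 12.83). Fat body markers (11.77) and muscle markers (12.87) were highest on it. The summed level of the 6 enterocyte markers, which the brightest proteases dominate, was between 13.12 and 13.22 in *Apc1* mutants and between 13.68 and 13.89 in wild type. Its members went both ways, with differences of -6.17 for the protease gene *Jon25Bi*, 0.47 for *Myo31DF* and 0.53 for *nub*, of which the last pair did not pass (limma adjusted p = 0.059 and 0.0791). Whether either marker change has a part in the galactosidase differences was not tested.

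Mean levels of the mannosidase genes differed by less than 2-fold between the genotypes. For *LManIII* and *LManIV* the standard errors (1.15 and 1.35) were too wide to show that the levels were similar. *LManI* had values of 8.88, 8.78 and 8.03 in *Apc1* mutants, against 8.58, 8.60 and 8.35 in wild type, a difference of 0.05 (SE 0.23.) *LManII*, whose product is a lysosomal alpha-mannosidase, had values of 10.42, 10.43 and 9.68 in *Apc1* mutants, against 10.07, 10.42 and 9.87 in wild type, a difference of 0.06 (SE 0.24.) In these neighbouring genes the mutant arrays lay on both sides of the wild-type arrays. The probe set of *LManII* is annotated in the deposited table with the *Drosophila simulans* gene of the same name as well.

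*LManV* and *LManVI* gave bright signals on all arrays. *LManV* had values of 11.22, 11.34 and 9.12 in *Apc1* mutants, against 11.05, 11.32 and 10.70 in wild type, a difference of -0.47 (SE 0.57.) Without *Apc1* mutant replicate 3 the difference was 0.25. *LManVI* had values of 11.64, 11.77 and 10.41 in *Apc1* mutants, against 11.37, 11.50 and 10.65 in wild type, a difference of 0.10 (SE 0.39.)

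*LManIII* and *LManIV* varied far more between arrays of the same genotype. *LManIII* had values of 8.66, 10.13 and 5.64 in *Apc1* mutants, against 8.92, 8.42 and 6.42 in wild type. Its means were 8.14 ± 2.29 in *Apc1* mutants and 7.92 ± 1.32 in wild type (SD, n = 3 each), and the difference was 0.22 (SE 1.15). *LManIV* had values of 4.28, 7.22 and 1.75 in *Apc1* mutants, against 4.94, 4.71 and 2.34 in wild type. Its SD was 2.74 in *Apc1* mutants and 1.44 in wild type (n = 3 each), and the difference was 0.42 (SE 1.35). In both genes replicate 3 was the dimmest array of either genotype, and for *LManIV* it lay below the array medians. A 2-fold difference, which is 1 on this scale, is smaller than either standard error. With 1 array left out, the difference ranged from -0.77 (without *Apc1* mutant replicate 2) to 1.48 (without *Apc1* mutant replicate 3) for *LManIII*, and from -0.99 to 1.75 without the same arrays for *LManIV*.

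**Figure D2:**
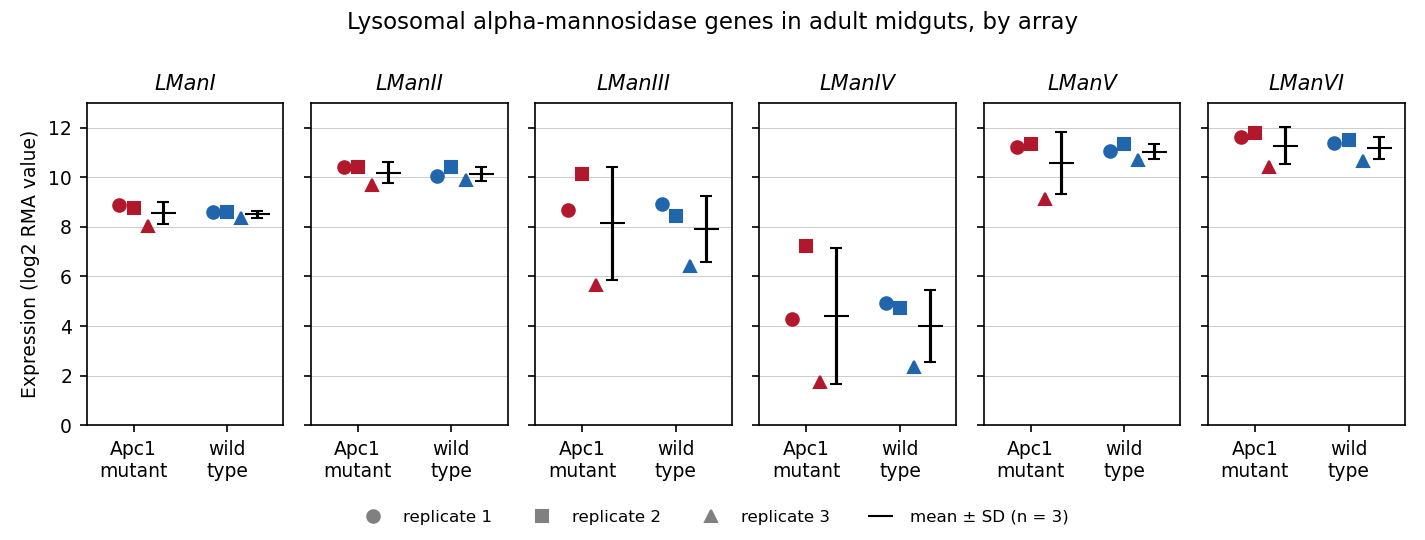
Expression of the 6 lysosomal alpha-mannosidase genes (y axis, log2 RMA value) in *Apc1* mutant (red, left) and wild-type (blue, right) midguts, 1 symbol per array, with the mean ± SD of 3 arrays beside them. The groups overlap in every panel, replicate 3 (triangles) is the lowest array of each genotype throughout, and the spread is widest for *LManIII* and *LManIV*.

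The spread of *LManIII* and *LManIV* within a genotype was unusual among all genes. This comparison does not use the difference between the genotypes, and it was made after the values were seen. The median SD over all gene entries was 0.14 in *Apc1* mutants and 0.19 in wild type. Only 0.0463% of the entries had a larger SD than *LManIII* in *Apc1* mutants and 0.578% in wild type, and for *LManIV* these shares were 0.0231% in *Apc1* mutants and 0.463% in wild type. An SD over 1 in both genotypes was found in 0.332% of the gene entries, and *LManIII* and *LManIV* were among them. *LManV* was variable in *Apc1* mutants (SD 1.25, exceeded by 0.447% of the entries) but not in wild type (SD 0.31, exceeded by 23.8%).

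The mannosidase genes shared a low array, a pattern picked after the values were seen. In 6 of 6, replicate 3 was the lowest array in *Apc1* mutants and also in wild type, whereas this held for 10.5% of all gene entries and for 0 of the 4 galactosidase genes. Replicate 3 lay below the mean of its genotype by 2.5 in *Apc1* mutants and by 1.5 in wild type for *LManIII*, and by 2.67 in *Apc1* mutants and 1.66 in wild type for *LManIV*. The distance was smaller for *LManV* (1.44 in *Apc1* mutants and 0.32 in wild type), *LManVI* (0.86 in mutants and 0.52 in wild type), *LManI* (0.53 in mutants and 0.16 in wild type) and *LManII* (0.50 in mutants and 0.25 in wild type). Related genes of this kind can share sequence, and how far their probe sets report each other's transcripts was not tested.

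The gap between replicate 3 and the next array placed *LManIV* and *LManIII* at the top of all gene entries. This measure was chosen after the pattern had been seen in these genes, so their place is a description only. Taking the smaller gap of the 2 genotypes, *LManIV* (2.37) and *LManIII* (2.00) had the largest values of the 12967 gene entries and were the 2 entries in which it exceeded 1. *CG7631* (0.90) and *CG15253* (0.74) came next, and *LManVI* (0.72) was at place 5. *CG7631* and *CG15253* were named only because their values were seen. *LManV* (0.35), *LManI* (0.23) and *LManII* (0.21) followed at places 46, 109 and 147. Beside these 2 entries for replicate 3, 1 gene entry had such a gap over 1 for replicate 1 and 3 entries for replicate 2. In the other direction, 18 entries were highest on replicate 2 by more than 1 in both genotypes, against 0 on replicate 1 and 0 on replicate 3.

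**Figure D3:**
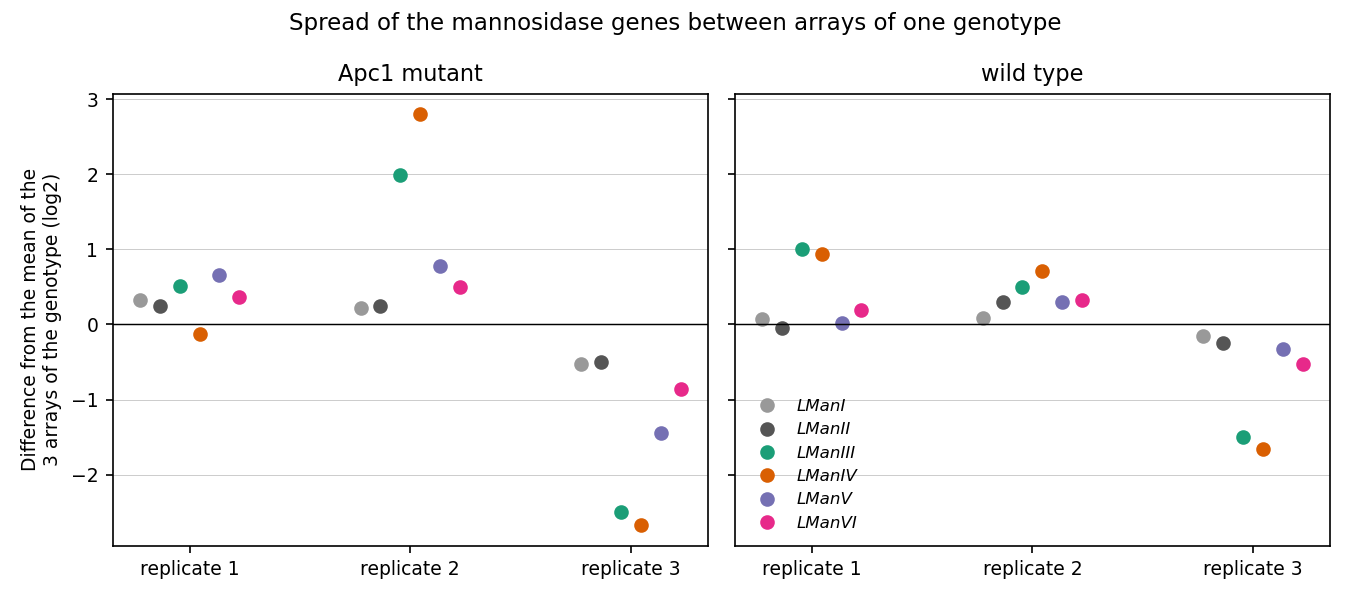
Difference of each array from the mean of its genotype (y axis, log2) for the 6 mannosidase genes, in *Apc1* mutants (left) and wild type (right). All 6 genes lie below 0 on replicate 3 of both genotypes, by as much as 2.67 for *LManIV* in *Apc1* mutants and 1.66 in wild type.

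Nothing in the labels states that replicate 3 of the genotypes shared a culture, day or batch. Over all gene entries, 10.5% were lowest on replicate 3 in both genotypes. Of 9 lists of cell type and tissue markers, a share close to this, 1 list, had that pattern, the enterocyte markers. Their summed level was 13.12 on *Apc1* mutant replicate 3, against 13.22 and 13.21 on the other mutant arrays, and 13.68 on wild type replicate 3, against 13.89 and 13.85 on the other wild-type arrays. Of the 6 markers, only *Jon65Aiii* was lowest on replicate 3 in both genotypes (12.15 in *Apc1* mutants and 12.36 in wild type). *Jon25Bi* had the lowest replicate 3 in wild type relative to the other arrays, with 8.30 against 9.75 and 9.77. It was dim on all *Apc1* mutant arrays and highest there on replicate 3 (3.01, 3.14 and 3.15). Replicate 3 was also highest for *betaTry* in *Apc1* mutants (9.56) and for *Myo31DF* in wild type (8.22). In wild type it was the middle array for *nub* (8.40) and *alphaTry* (11.99). Whether the enterocyte markers have a part in the low mannosidase values was not tested. Without both arrays of replicate 3, a setting chosen after the data were seen, *LManIII* differed between the genotypes by 0.72, *LManIV* by 0.92, *LManV* by 0.09 and *LManVI* by 0.27, and the 4 galactosidase genes alone were beyond 2-fold.

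*LManIII*, *LManIV*, *LManV* and *LManVI* are neighbours among the measured genes of chromosome arm 2L, and *LManI* and *LManII* are neighbours elsewhere on that arm. Of the 3 measured genes on each side of the *LManIII* to *LManVI* run (*CatB*, *raw* and *CG12438* before it, *SoxN*, *CG32986* and *CG32987* after it), 0 of 6 passed the test between the genotypes, with differences between -0.48 and 0.12 (limma adjusted p between 0.241 and 0.955). Over all gene entries, 14.3% passed. *raw* lay between 7.58 and 7.79 in *Apc1* mutants and between 7.43 and 7.61 in wild type, and was not lowest on replicate 3 in either genotype. The other 5 were dim, at a level where a lower replicate 3 would have been hard to see. Of these, *CG32986* was lowest on replicate 3 in both genotypes (0.84 in *Apc1* mutants and 0.88 in wild type).

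Next to *LManI* and *LManII*, 3 of 6 neighbours passed the test, beside 14.3% of all gene entries. *RluA-1* fell by 1.20 log2 units in *Apc1* mutants (limma adjusted p = 0.0327), and *Grip75*, a component of the gamma-tubulin ring complex, rose by 0.62 (limma adjusted p = 0.0403). *ppk10*, a dim member of an ion channel family, rose by 0.51 (limma adjusted p = 0.0409). Each of these margins was narrow, and with 1 array left out *RluA-1* missed the threshold in 4 of 6 fits (adjusted p up to 0.102), *Grip75* in 5 (up to 0.125) and *ppk10* in 5 (up to 0.12). The genes between which *LManI* and *LManII* lie thus included 3 that passed with all arrays but not in most fits with 1 array left out. Both mannosidase genes differed by less than 0.1.

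Other enzymes and proteins of the same routes were compared with limma over all gene entries, of which 8.91% rose and 5.38% fell in *Apc1* mutants at an adjusted p under 0.05 (14.3% in either direction). Of 9 measured genes for other lysosomal glycosidases, 3 fell and none rose, with a median difference of 0.03. *Hexo2*, a beta-hexosaminidase gene, had values of 2.40, 2.04 and 2.43 in *Apc1* mutants, against 4.58, 4.59 and 4.85 in wild type, and fell by 2.39 log2 units (limma adjusted p = 0.000171). Its mutant values lie around the array medians. The related and brighter *Hexo1* had values of 8.78, 8.84 and 8.69 in *Apc1* mutants, against 9.71, 9.59 and 9.69 in wild type, and fell by 0.89 (limma adjusted p = 0.00248). *Naglu*, whose human counterpart removes N-acetylglucosamine from heparan sulfate, had values of 2.98, 2.95 and 2.21 in *Apc1* mutants, against 4.38, 4.75 and 4.83 in wild type, and fell by 1.94 (limma adjusted p = 0.00278). These 3 genes passed in all 6 fits with 1 array left out. The beta-mannosidase gene *beta-Man* had a difference of -0.11 (limma adjusted p = 0.769). *Gba1a*, a glucocerebrosidase gene, had a difference of 1.02 but a spread in wild type of 1.61 (SD, n = 3) and did not pass (limma adjusted p = 0.448).

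Enzymes that trim N-linked glycans before a protein leaves the secretory pathway are separate from the lysosomal mannosidases. Of 12 measured genes, 1 rose and 2 fell, with a median difference of 0.11. *alpha-Man-Ia*, a class I mannosidase gene, averaged 6.71 ± 0.25 in *Apc1* mutants and 5.62 ± 0.31 in wild type (SD, n = 3 each) and rose by 1.09 (limma adjusted p = 0.0135). *Edem1* fell by 1.08 (limma adjusted p = 0.0429) and *Edem2* fell by 0.63 (limma adjusted p = 0.0273). Both encode mannosidase-like proteins that take part in the removal of misfolded glycoproteins. *alpha-Man-Ia* missed the threshold without *Apc1* mutant replicate 3 (adjusted p = 0.057), and *Edem1* and *Edem2* each missed it in 5 of the 6 fits with 1 array left out (up to 0.139 and 0.101). *Edem1* also missed it with the mean of its probe sets (0.1).

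Of 13 genes for the use of free galactose and mannose, 4 rose and 1 fell, with a median difference of 0.17. *CG32444*, which encodes an aldose epimerase that interconverts forms of galactose, had values of 6.94, 5.82 and 5.82 in *Apc1* mutants, against 8.31, 7.90 and 8.41 in wild type, and fell by 2.01 (limma adjusted p = 0.00803). *Galk* and *Galt*, the kinase and the transferase that follow it in the pathway, differed by -0.03 and -0.16 and did not pass (limma adjusted p = 0.916 and 0.483). *Hex-A*, a hexokinase gene, rose by 0.78 (limma adjusted p = 0.00703) and *Pgm2a*, listed under the older name *Pmm45A*, rose by 0.84 (limma adjusted p = 0.0109). *Mpi*, mannose phosphate isomerase, rose by 0.47 (limma adjusted p = 0.0455), but missed the threshold in all 6 fits with 1 array left out (up to 0.146) and after quantile normalization (0.0635).

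Of 16 genes for lysosomal proteases, membrane proteins and sorting, 3 rose and none fell, with a median difference of 0.22. *Lerp*, the receptor that delivers enzymes to the lysosome in flies, had values of 10.80, 10.62 and 10.81 in *Apc1* mutants, against 9.98, 9.86 and 9.86 in wild type, and rose by 0.84 (limma adjusted p = 0.00392). *Npc1a*, a sterol transporter of the lysosomal membrane, averaged 9.13 ± 0.23 in *Apc1* mutants and 8.05 ± 0.20 in wild type (SD, n = 3 each) and rose by 1.09 (limma adjusted p = 0.00646). *Cln7*, a membrane protein gene, rose by 0.91 (limma adjusted p = 0.0153), but missed the threshold without *Apc1* mutant replicate 1 or replicate 3 (adjusted p up to 0.0608). The membrane protein gene *Lamp1* differed by 0.08 and the cathepsin genes *CtsL1*, *CtsB*, *CtsF* and *cathD* by 0.10 to 0.25, and none of these 5 passed. *Mitf*, whose product drives lysosomal genes in flies, had a difference of 0.41 (limma adjusted p = 0.0927).

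**Figure D4:**
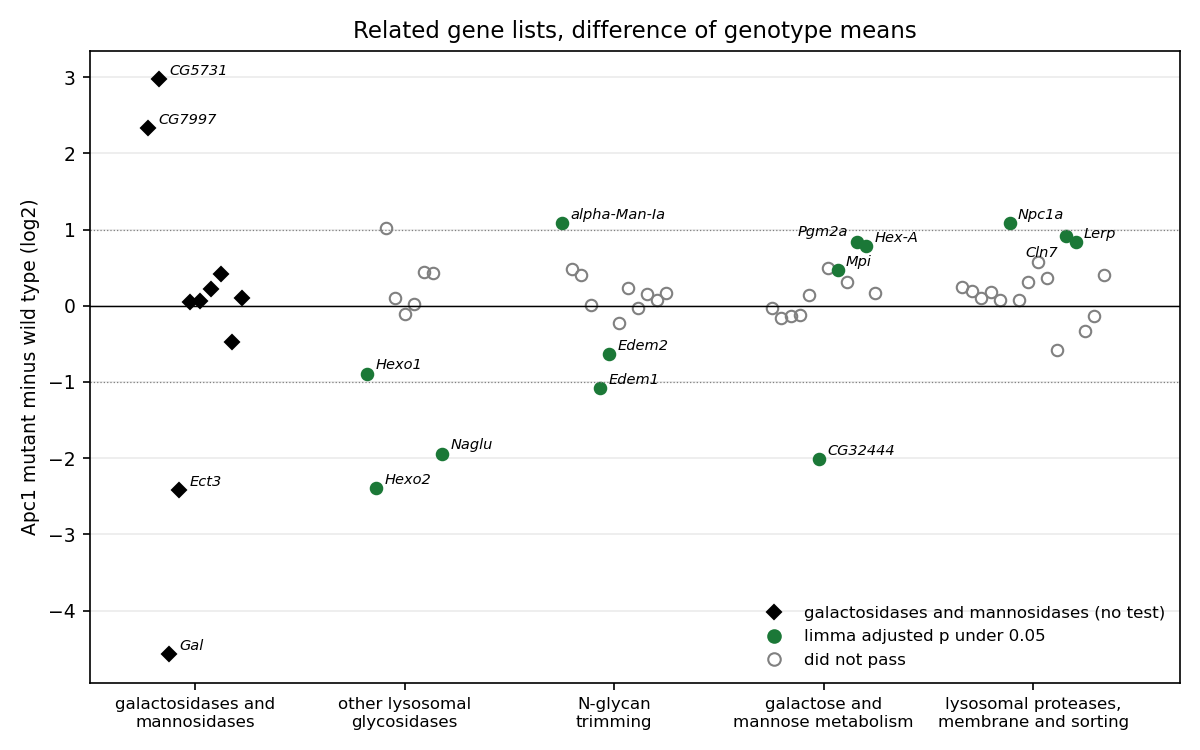
Difference of the genotype means (y axis, *Apc1* mutant minus wild type, log2) for the 10 galactosidase and mannosidase genes (black diamonds, no test) and for the measured genes of 4 related lists except 1 (circles, filled where the limma adjusted p is under 0.05). Dotted lines mark a 2-fold difference. *Gal* (-4.57) and *CG5731* (2.97) lie farthest from 0, and among the related genes *Hexo2* (-2.39) and *CG32444* (-2.01) do.

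Of 12 measured digestive carbohydrase genes, mostly maltases, 1 rose and 2 fell, with a median difference of -0.46. Over all gene entries, 8.91% rose and 5.38% fell. *Mal-A2* rose by 1.57 (limma adjusted p = 0.00503), whereas *Mal-A7* fell by 2.59 (limma adjusted p = 0.0268) and *Mal-A8* fell by 2.31 (limma adjusted p = 0.0312), both of which missed the threshold in at least 4 of 6 fits with 1 array left out (adjusted p up to 0.087 and 0.0964). Without wild type replicate 2, 6 of these genes passed, 1 higher and 5 lower.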

How the data were processed

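The authors hybridized RNA of 3 *Apc1* mutant and 3 wild-type midgut samples to 1 array each, normalized the scans by RMA and deposited log2 values for 18952 probe sets. Software and background correction are not given in the sources used here, and the processing notes name MAS5 beside RMA. The authors' deposited fold changes and p-values were not used. After removal of 183 control probe sets and 3977 without a gene name, probe sets were named by RefSeq accession or symbol, and the brightest probe set over all arrays represented each of 12967 gene entries. The test was two-sided, by limma 3.58.1 under R 4.3.3 (lmFit, then eBayes with no trend), adjusted over all entries by the Benjamini-Hochberg method, and the script was tested on simulated data. Summed marker levels are log2 of the sum of linear values. Members and lists were chosen with earlier results of these data known. Named genes are the 10 members, *Apc*, up to 4 genes with the largest difference among those passing in each list, and 3 neighbours on each side of member runs. *Mpi*, markers and genes that did not pass were added for context. Of the galactose and mannose list, 1 gene is counted but otherwise not reported here. *Fuca*, *Amy-p* and *Amy-d* had no entry of their own and were not used here. The labels name no separate cultures, so p-values measure only the spread between these samples, which may be technical. The number of arrays limits the precision. As alternatives, probe sets of an entry were averaged, arrays were median centred, and further settings were quantile normalization, omission of entries with a mean under 5, eBayes with trend and robust estimation, the replicate number as a block, and leaving out each array.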

Additional observations from a re-analysis of the deposited data

How the results depend on the processing

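The galactosidase genes kept their directions under every alternative that tested them, and the 4 were beyond 2-fold without overlap in all of them except the omission of entries with a mean under 5, which removed *CG5731*, *Ect3* and *LManIV* and left 2 genes beyond 2-fold and 2 without overlap, *CG7997* and *Gal*. With 1 array left out, 4 to 6 genes were beyond 2-fold and 4 to 7 had no overlap. The higher counts came without *Apc1* mutant replicate 3, which added *LManIII* and *LManIV* beyond 2-fold and *LManI*, *LManII* and *LManVI* without overlap. Without both arrays of replicate 3, chosen after the data were seen, 7 genes had no overlap, with 2 arrays per group. The mannosidase genes among them differed little, *LManI* by 0.24, *LManII* by 0.18 and *LManVI* by 0.27. Smaller groups overlap less readily, and the share of all gene entries without overlap was not counted with arrays left out. The higher counts can therefore not be set against the 35.2% found with all arrays. Over all gene entries, 1853 passed, a count that any left-out array lowered, to 1528 at most and, without *Apc1* mutant replicate 3, to 921. With 1 array left out, the counts of passing genes were 0 to 2 for N-glycan trimming (3 with all arrays), 3 to 4 for galactose and mannose use (5 with all arrays) and 1 to 6 for digestive carbohydrases (3 with all arrays). Without entries of a mean under 5, 1 other lysosomal glycosidase gene passed, as 5 were then tested, and 5 genes of lysosomal proteases, membrane proteins and sorting passed, *Sap-r* and *Ppt2* in addition. The replicate numbers were not taken to pair the samples, since the deviations of same-numbered arrays from their group means correlated at 0.148, 0.202 and 0.011, and not every array correlated best with its own number. With the replicate block, 1577 gene entries passed, among them 1 gene of N-glycan trimming and 6 digestive carbohydrase genes, while *Edem1* (adjusted p = 0.0704), *Edem2* (0.061) and *Mpi* (0.082) missed the threshold. Overlap under the block was not run, as the block does not change the values. Dim values limit the size of the differences of *CG5731*, *Gal*, *Ect3* and *Hexo2*.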
